A study of Mus musculus with 6 samples.

Results

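The genes described are 10 that encode proteins of platelet granules and of platelet activation, namely Pf4, Ppbp, Mmrn1, F5, Thbs1, Treml1, Clec1b, Rab27b, Plek and F2rl2. They were taken by gene name from an array of 55681 mouse probes, on which 15 probes carry these names. All 10 genes and 14 of the 15 probes passed a filter on dim probes, among 18228 gene names that did. The samples were erythroid progenitors, the precursors of red cells, isolated from mouse fetal liver at stage E14.5 of embryonic life. In the shExosc8 group (3 arrays) a retrovirus carried a short hairpin RNA against Exosc8, a subunit of the RNA exosome that degrades RNA, and in the shControl group (3 arrays) it carried one against luciferase, a gene that mouse cells lack. Both groups were kept for 3 days in medium with erythropoietin at 0.5 U/ml, dexamethasone at 1 uM and kit ligand from the conditioned medium of a producing cell line. The labels name no mouse strain and no selection of infected cells, and nothing says that replicates were separate cultures or litters; the spread behind each p-value may therefore be technical.

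Platelets are shed by megakaryocytes, which share a bipotent precursor with red cells. Megakaryocytes pack chemokines, adhesive proteins and clotting factors into alpha granules, and small molecules into dense granules. On activation, receptors at the platelet surface signal through kinases and small GTPases, the granules fuse with the membrane and their cargo is released. The 10 genes cover this path from cargo through granule handling to receptors.

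The hairpin target Exosc8 stood at 45.3% of the shControl level (log2 fold change -1.14 ± 0.16 SE, limma adjusted p = 0.00554). On shControl replicate 2, 67.3% of non-control spots passed the software's background test, against 43.1% to 49.3% on the remaining 5 arrays. All 6 arrays shared 1 slide and 1 scan, and each group filled its own row, which means that row and group cannot be told apart. Of the 18228 names, 2923 were called higher and 2516 lower in shExosc8, so 53.7% of calls were rises. That split moves with scaling: it was 37.1% with a percentile over all probes and 67.0% with another background correction (normexp). With no scaling between arrays 1648 names were called higher and 7519 lower. The median log2 fold change of all names was -0.06 as reported, -0.21 with the percentile over all probes and -0.56 with no scaling. Because RNA came from whole cultures, more cells of a type and more RNA per cell cannot be told apart.

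After scaling, all 10 genes gave a higher signal on each shExosc8 array than on any shControl array. Before scaling, F2rl2 overlapped between the groups, with a signal of 592 on shControl replicate 2 against 431 on shExosc8 replicate 2. Of the 10, 9 rose by at least 4-fold and passed the test, 0 fell, and F2rl2 (adjusted p = 0.0657) did not pass. Across all names 16.0% were called higher, 10.1% were called and at least 2-fold higher, 3.66% were called and at least 4-fold higher, and 23.2% had every shExosc8 array above every shControl array. The median log2 fold change of the 10 genes was 3.21, with a range of 2.35 for Plek to 4.13 for Thbs1. The signal of all 10 genes was well above background on all 3 shControl arrays as well, so none entered through the shExosc8 arrays alone. Calls are from limma with Benjamini-Hochberg adjustment over all 18228 names at 0.05, and values below are log2 signal relative to each array's 75th percentile, in the order of replicates 1, 2 and 3.

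**Figure D1:**
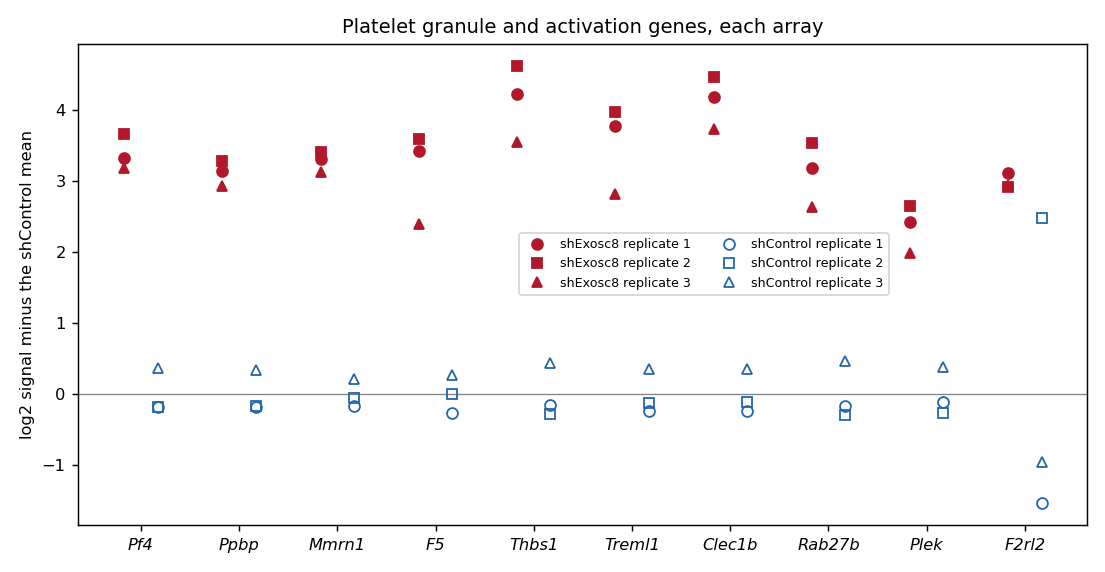
Log2 signal of each gene on each array, as the difference from the mean of the 3 shControl arrays (y axis), for the 10 genes (x axis), with filled marks for shExosc8 on the left of each gene and open marks for shControl on the right. The shExosc8 marks lie above all shControl marks for each gene, and the F2rl2 mark of shControl replicate 2 lies 2.48 above its own group's mean.

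The chemokines of the alpha granule, Pf4 and Ppbp, rose with overlapping intervals. Pf4 encodes platelet factor 4, a heparin-binding chemokine of the CXC family. Its signal was 5.45, 5.78 and 5.30 in shExosc8, against 1.95, 1.95 and 2.49 in shControl. The mean was 5.51 ± 0.25 in shExosc8 and 2.13 ± 0.31 in shControl (SD, n = 3 each), a 10.4-fold rise with a 95% interval of 7.43 to 14.7 (adjusted p = 0.000372). Ppbp encodes pro-platelet basic protein, the precursor of a neutrophil-attracting chemokine. Its signal was 1.48, 1.62 and 1.27 in shExosc8, against -1.84, -1.82 and -1.32 in shControl. The rise was 8.66-fold with an interval of 6.39 to 11.7 (adjusted p = 0.000359), and as for Pf4 the groups lay far apart, with shControl replicate 3 the highest control.

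The 2 chemokine genes are neighbours on chromosome 5. On mm9 the Ppbp probe lies at chr5:91198970-91199029 and the Pf4 probe at chr5:91202275-91202334, both on the plus strand, with 3245 bases between them. Their promoters are shown because the genes adjoin and moved together. The sequences are from RefSeq on GRCm38.p6, run from 250 bases before to 50 after the start, and lie at chr5:90772185-90772484 for Pf4 and chr5:90768268-90768567 for Ppbp on the plus strand. Capitals mark matches to the GATA motif (AGATAA or AGATAG or TGATAA or TGATAG) or the ETS motif (AGGAAG or CGGAAG), searched on both strands.
Pf4: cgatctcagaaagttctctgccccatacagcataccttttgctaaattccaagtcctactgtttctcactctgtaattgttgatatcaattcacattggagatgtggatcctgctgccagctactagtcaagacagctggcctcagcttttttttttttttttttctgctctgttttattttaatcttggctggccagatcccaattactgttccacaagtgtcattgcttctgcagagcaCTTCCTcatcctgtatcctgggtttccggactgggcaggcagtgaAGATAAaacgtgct
Ppbp: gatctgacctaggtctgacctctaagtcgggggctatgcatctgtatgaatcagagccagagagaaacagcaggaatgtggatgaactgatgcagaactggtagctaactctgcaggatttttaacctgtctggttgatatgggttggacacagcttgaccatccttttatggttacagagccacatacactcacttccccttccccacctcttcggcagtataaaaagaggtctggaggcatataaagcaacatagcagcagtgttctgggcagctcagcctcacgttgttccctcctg
The Pf4 window holds an AGATAA at bases 37 to 42 after the start and, on the minus strand, an AGGAAG at bases -9 to -4, while the Ppbp window holds neither motif. A match is only a run of letters, and the part of such matches in the rises was not tested.

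The adhesive and clotting cargo of the alpha granule rose as well. Mmrn1 encodes multimerin 1, a large granule protein that binds factor V. Its signal was -0.93, -0.83 and -1.12 in shExosc8, against -4.40, -4.30 and -4.03 in shControl, a 9.72-fold rise (interval 7.65 to 12.3, adjusted p = 0.000343). This was the tightest of the 10 estimates, with a standard error of 0.14 on the log2 scale. F5 encodes factor V, the cofactor that speeds the making of thrombin, which the liver also secretes into plasma. Its signal was -1.08, -0.90 and -2.10 in shExosc8, against -4.77, -4.49 and -4.23 in shControl, an 8.78-fold rise (interval 5.01 to 15.4, adjusted p = 0.00220). The lower value of shExosc8 replicate 3 widened that interval without bringing the groups together. Thbs1 encodes thrombospondin 1, an adhesive glycoprotein that endothelial cells, fibroblasts and macrophages also make. Its signal was 2.29, 2.69 and 1.62 in shExosc8, against -2.08, -2.21 and -1.48 in shControl. The rise was 17.5-fold (interval 10.2 to 29.8, adjusted p = 0.000806), the 48th largest fitted rise among the 18228 names.

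The surface receptors Treml1 and Clec1b were among the larger rises. Treml1 encodes an immunoglobulin-type receptor held in the alpha granule membrane until activation. Its signal was 3.19, 3.39 and 2.24 in shExosc8, against -0.81, -0.71 and -0.22 in shControl, an 11.5-fold rise (interval 6.61 to 19.9, adjusted p = 0.00147). Clec1b encodes a C-type lectin receptor that binds podoplanin and signals through the kinase Syk. The probe that stands for it, the one with the highest mean signal, was at 1.50, 1.77 and 1.04 in shExosc8, against -2.93, -2.80 and -2.33 in shControl. The rise was 17.4-fold (interval 11.7 to 26.0, adjusted p = 0.000359), and the groups lay far apart.

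Clec1b had 3 probes, which differ in the transcripts listed for them. The array's annotation lists 3 RefSeq transcripts for the probe above, at chr6:129353604-129353663 of mm9, and only 1 for a probe at chr6:129350113-129350172. Both probe sequences, which read the plus strand, are shown because their listed transcripts differ.
Clec1b probe of 3 transcripts: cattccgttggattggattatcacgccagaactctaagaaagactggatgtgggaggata
Clec1b probe of 1 transcript: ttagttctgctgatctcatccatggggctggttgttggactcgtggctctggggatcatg
When every probe was tested on its own, the probe of 1 transcript rose by 3.80 ± 0.24 (log2, SE, adjusted p = 0.000549) and the probe of 3 transcripts by 4.12 ± 0.24 (adjusted p = 0.000450). The other probe of 3 transcripts, at chr6:129355286-129355345, rose by 4.12 ± 0.29 (adjusted p = 0.000702). The 3 probes were read on the same arrays, so their separate standard errors do not compare them. The difference between probes was not tested.

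Genes of granule release and of signalling to it rose too. Rab27b encodes a small GTPase that works in dense granule formation and secretion. Its signal was -0.06, 0.30 and -0.61 in shExosc8, against -3.41, -3.54 and -2.78 in shControl, an 8.67-fold rise (interval 5.31 to 14.2, adjusted p = 0.00148). Plek encodes pleckstrin, a main substrate of protein kinase C in platelets that leukocytes also express. Its signal was 2.93, 3.16 and 2.50 in shExosc8, against 0.40, 0.25 and 0.89 in shControl. The rise was 5.09-fold (interval 3.44 to 7.52, adjusted p = 0.00180), the smallest of the 10.

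F2rl2 encodes the protease-activated receptor PAR3, which on mouse platelets helps thrombin act on PAR4. Its signal was -2.75, -2.95 and -2.92 in shExosc8, against -7.39, -3.38 and -6.81 in shControl. The shExosc8 arrays lay close together (SD 0.11), while shControl replicate 2 stood 3.43 above the higher of the other control arrays and just below the shExosc8 arrays. Among the 18228 names 2, F2rl2 included, had a gap that large on that array. With all arrays the log2 fold change was 2.99 ± 1.00 (SE, adjusted p = 0.0657). Without shControl replicate 2 it was 4.23 ± 0.21 (adjusted p = 0.00139). That value rests on dim control spots, although they passed the background test. Before background was subtracted, mean brightness was 167 and 244 in shControl replicates 1 and 3, against 566 to 902 in shExosc8. The size of the rise therefore moves with background correction. With normexp and the 75th percentile on all arrays it was 2.00 ± 0.56 (adjusted p = 0.0356).

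The F2rl2 value of shControl replicate 2 rests on 1 spot with uneven pixels. The standard deviation of pixels within that spot was 67.7% of the spot's mean, against 15.1% to 23.5% for the F2rl2 spots of the other 5 arrays. Its mean brightness was 769 and its median 535, and the scanner software did not mark it. The other 89 spots of the 10 genes had a median pixel spread of 16.0% and a highest of 24.2%. On shControl replicate 2, 42 of 39936 spots well above background had a spread at least as large as that spot. No other signal of the 10 genes rests on such a spot, and the part of the uneven pixels in the F2rl2 value was not tested.

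**Figure D2:**
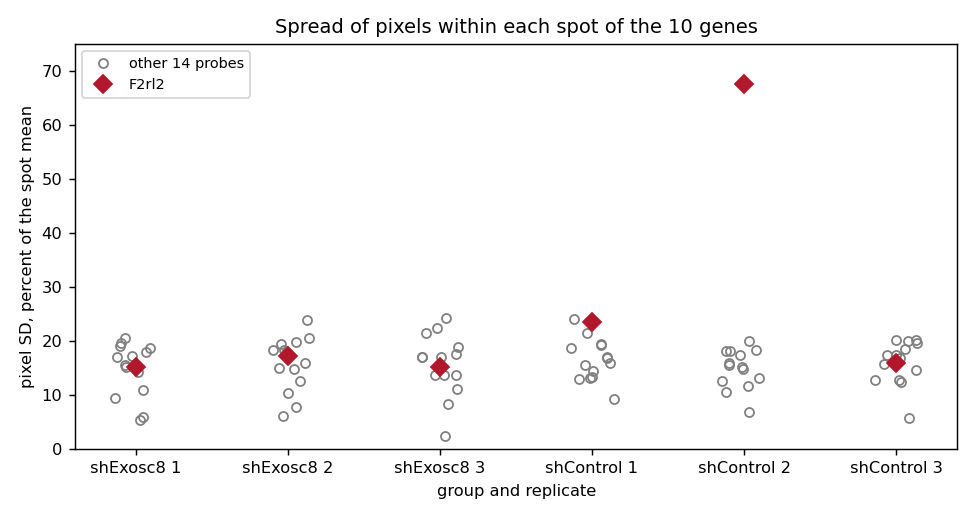
Standard deviation of pixels as a percent of the spot mean (y axis) for each spot of the 15 probes on each array (x axis), with F2rl2 as filled diamonds and the other probes as open circles. The F2rl2 spot of shControl replicate 2 is at 67.7% and all other spots are at or under 24.2%.

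The promoter of F2rl2 is shown because its 2 motif matches adjoin. It lies at chr13:95696670-95696969 of GRCm38.p6 on the plus strand (RefSeq), and capitals mark an AGGAAG at bases -101 to -96 followed directly by an AGATAA at bases -95 to -90.
F2rl2: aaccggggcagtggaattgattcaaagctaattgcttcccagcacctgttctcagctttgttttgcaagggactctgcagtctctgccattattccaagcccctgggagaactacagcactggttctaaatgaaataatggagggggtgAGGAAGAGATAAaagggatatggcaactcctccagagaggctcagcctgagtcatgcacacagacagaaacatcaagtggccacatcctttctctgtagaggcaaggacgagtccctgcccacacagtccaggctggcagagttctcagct
Promoters of 8 of the 10 genes matched the table by symbol, without Thbs1 and Rab27b. A GATA match was found in 4 of the 8 (Clec1b, F2rl2, Mmrn1 and Pf4), against 29.8% of 32817 promoters of the same length, and an ETS match in 3 of the 8 (F2rl2, F5 and Pf4), against 46.5%. Mmrn1 has a TGATAA at bases -34 to -29, and Clec1b has one at -189 to -184 and an AGATAA at 38 to 43. Plek, Ppbp and Treml1 held neither motif, as spelled above, in these windows.
Mmrn1: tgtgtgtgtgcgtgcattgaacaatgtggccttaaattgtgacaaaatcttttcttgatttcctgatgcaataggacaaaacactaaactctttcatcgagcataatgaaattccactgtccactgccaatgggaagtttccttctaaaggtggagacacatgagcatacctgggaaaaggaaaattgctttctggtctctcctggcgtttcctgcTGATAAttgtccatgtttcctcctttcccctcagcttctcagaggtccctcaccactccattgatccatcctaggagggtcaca
Clec1b: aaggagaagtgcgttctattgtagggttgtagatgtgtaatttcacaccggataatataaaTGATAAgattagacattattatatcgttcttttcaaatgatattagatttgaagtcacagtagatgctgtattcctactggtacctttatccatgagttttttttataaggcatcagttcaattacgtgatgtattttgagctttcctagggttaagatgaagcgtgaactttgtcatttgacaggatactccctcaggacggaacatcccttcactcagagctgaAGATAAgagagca
These windows are at chr6:60944067-60944366 and chr6:129397047-129397346, on the plus strand, and are shown for comparison with Pf4.

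Where a gene had several probes, those above background gave the same direction. The second Rab27b probe rose by 3.59 ± 0.28 (log2, SE, adjusted p = 0.000905), against 3.12 ± 0.29 for the probe that stands for the gene. The second F5 probe, at chr1:166139728-166141916 of mm9, spans 2189 genomic bases for a sequence of 60 and so crosses an intron. It read -3.54, -3.56 and -3.82 in shExosc8, against -7.52, -6.61 and -7.00 in shControl, where only 1 of 3 arrays was above background. That probe rose by 3.40 ± 0.24 (adjusted p = 0.000692). The second Mmrn1 probe, at chr6:60896017-60896076, carries no RefSeq transcript in the annotation and was well above background on none of the 6 arrays, so it gives no fold. Of the 24836 probes tested singly 14.7% were called higher, and 13 of the 14 probes of the 10 genes were.

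**Figure D3:**
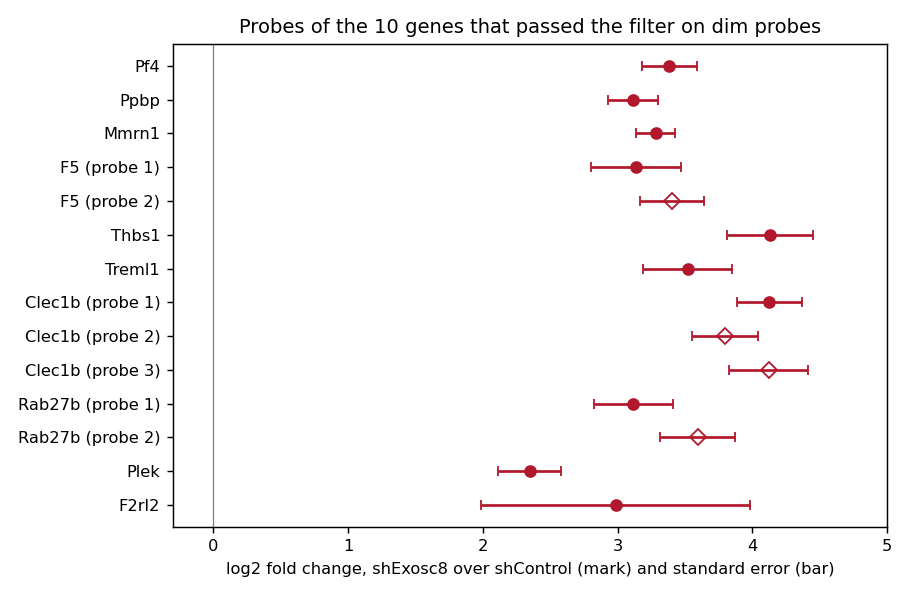
Log2 fold change of shExosc8 over shControl (x axis) with its standard error for each of the 14 probes that passed the filter (y axis), with filled circles for the probe that stands for its gene and open diamonds for further probes. All marks lie right of 0, and the F2rl2 bar of 1.00 is the widest.

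The replicates ranked alike across the 10 genes. shExosc8 replicate 3 was the lowest of its group for 9 of 10 genes and shExosc8 replicate 2 the highest for 9 of 10. Over the shControl mean, the median of the 10 genes was 3.31, 3.57 and 2.93 in shExosc8 replicates 1, 2 and 3. shControl replicate 3 was the highest control for 9 of 10 genes, with a median of 0.36 against -0.18 and -0.15 in replicates 1 and 2. On the same scale the median of all names was between -0.07 and 0.02 on each array. With each array left out in turn, the 9 rises kept an adjusted p of 0.0147 or lower. Leaving out shControl replicate 2 turned F2rl2 into a call, and the other 5 omissions left it at an adjusted p of 0.0958 to 0.174.

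**Figure D4:**
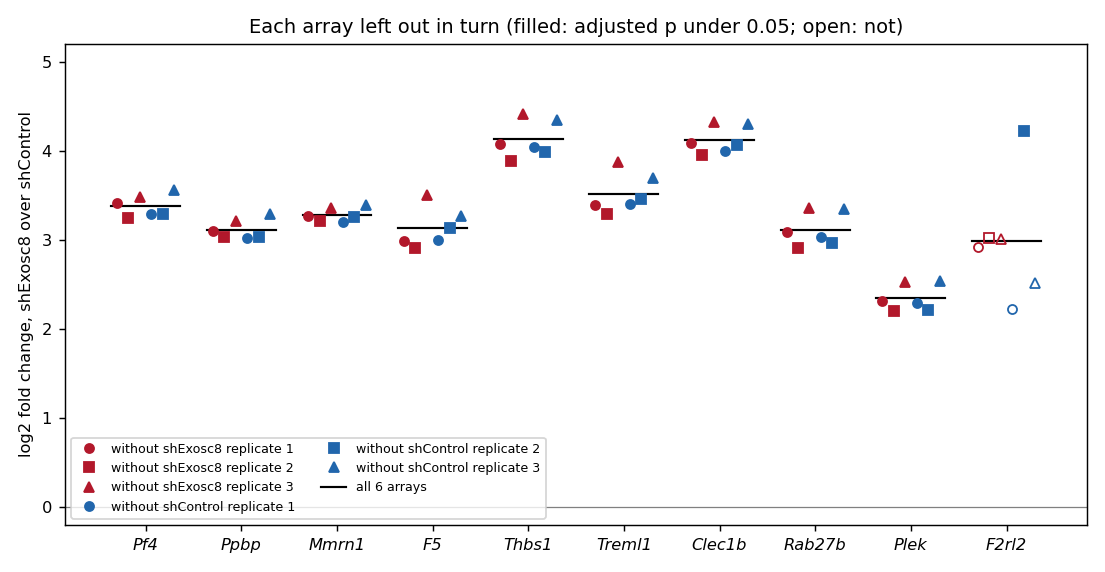
Log2 fold change of shExosc8 over shControl (y axis) for each gene (x axis) with each of the 6 arrays left out, beside the value with all arrays (line), filled where the adjusted p was under 0.05. Marks of 9 genes are filled throughout, and F2rl2 is filled at 4.23 without shControl replicate 2 and open for the other omissions.

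Values were also compared within slide columns, which does not bear on the slide row. Slide columns 2 and 3 each held 1 array of either group. The difference of shExosc8 minus shControl for the 10 genes ran from 2.76 to 4.78 within column 2 and from 0.46 to 3.84 within column 3. The value of 0.46 is that of F2rl2, whose control in column 3 is shControl replicate 2, and the next lowest was that of Plek at 2.25. With the column as a block 9 of 10 genes passed, at adjusted p values up to 0.0402, in a fit that keeps 1 residual degree of freedom and called 537 names in all.

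Other alpha granule genes mostly rose. Lists are counted over the genes above background on all 3 shControl arrays, a choice made after the values were seen, since others passed the filter through the shExosc8 arrays. Of 23 alpha granule genes listed, 19 qualified, of which 13 rose and 2 fell (median log2 fold change 1.73, against -0.06 for all names). Over all 18228 names 16.0% were called higher and 13.8% lower, the shares to set beside each list and marker count below. Those names include some that passed the filter through the shExosc8 arrays. Clu, which encodes clusterin, was at 2.05, 2.12 and 1.95 in shExosc8, against -1.76, -1.74 and -1.02 in shControl, a rise of 3.55 ± 0.22 (log2, SE). Pdgfb, a chain of platelet-derived growth factor, rose by 3.24 ± 0.13. Aplp2, a relative of the amyloid precursor protein, fell by 0.93 ± 0.14. The other fall was that of the amyloid precursor gene App at -0.35, named after its value was seen.

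Most genes that build granules or drive their fusion did not pass the test. Of 22 granule biogenesis genes that qualified of 23 listed, 7 rose and 0 fell (median 0.19). Slc35d3, needed for dense granules, rose by 3.48 ± 0.17 and the granule tetraspanin gene Cd63 by 2.04 ± 0.21. Of 21 secretion genes that qualified of 24 listed, 4 rose and 0 fell (median 0.095), a share of rises near the 16.0% over all names. Sytl4, which encodes a granule protein that binds Rab27, was at 3.28 ± 0.19 with 1 of 3 shControl arrays above background and is not in that count. Rab27a, the paralog of Rab27b, rose by 1.52 ± 0.28, and the other rises were Vamp3 (0.82), Stx11 (0.92) and Myo5a (0.61), named after their values were seen. The groups of Rab27a lay at -4.47, -4.77 and -3.76 in shExosc8, against -6.05, -5.92 and -5.59 in shControl, with shExosc8 replicate 3 the highest here.

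The activation receptors that qualified rose almost throughout, and their signalling partners in part. Of 12 receptors that qualified of 19 listed, 11 rose and 0 fell (median 3.02), and Ptger3 at -0.13, named after its value was seen, did not pass. The 4 others that passed the filter were F2rl3, Adra2a, Slamf1 and Cd226, each above background on all shExosc8 arrays and on 1 or 2 of 3 shControl arrays. Of the listed receptors P2ry12, Jam3 and F2rl1 did not pass the filter, and F2rl1 was above background on no array. Slamf1, an immune cell adhesion receptor, was at 4.72 ± 0.24 with 1 of 3 shControl arrays above background, and F11r, a junctional adhesion molecule, rose by 4.29 ± 0.26. The thrombin receptor genes related to F2rl2 were F2rl3 at 3.48 ± 0.52, with 1 of 3 shControl arrays above background, and F2r at 1.23 ± 0.17, both named after their values were seen. Of 24 signalling genes that qualified of 28 listed, 11 rose and 0 fell (median 0.71). Tbxas1, thromboxane synthase, rose by 3.70 ± 0.19 and Ptgs1, the cyclooxygenase upstream of it, by 3.19 ± 0.19.

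**Figure D5:**
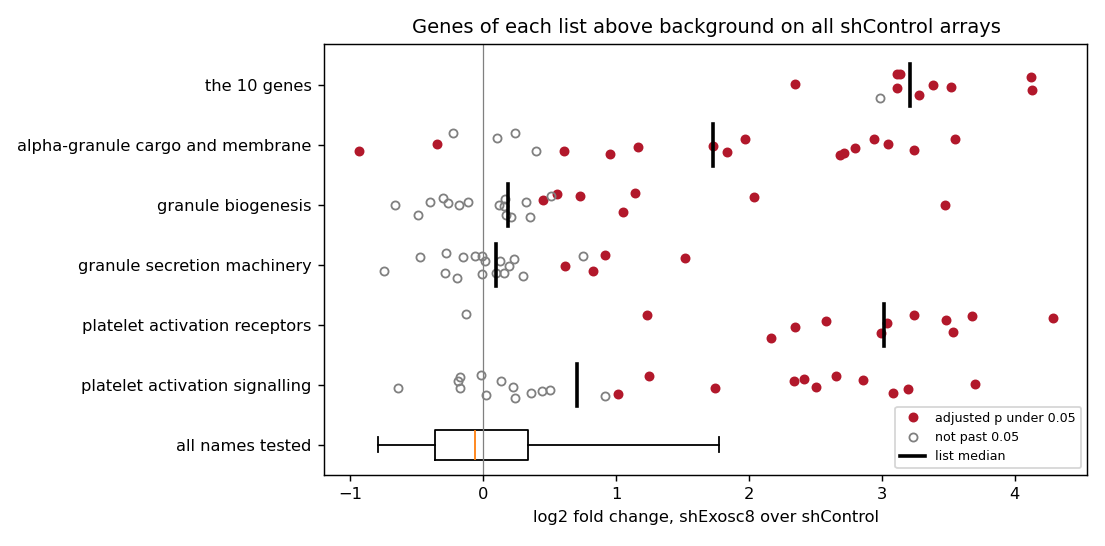
Log2 fold change of shExosc8 over shControl (x axis) for the genes of each list that were above background on all 3 shControl arrays (y axis), filled where the adjusted p was under 0.05, with the list median as a line and a box for all names whose whiskers reach the 5th and 95th percentile. The 10 genes and the activation receptors have medians of 3.21 and 3.02, granule biogenesis and secretion genes 0.19 and 0.095.

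Markers of several cell types moved beside these genes, and their part in the rises was not tested. The labelled cell type was present by its markers: 11 of 12 erythroid markers were measured, all above background on every shControl array, and 3 rose and 1 fell (median 0.28). Their summed signal was 122% to 184% of the shControl mean in shExosc8, against 90.2% to 106% in shControl. All 12 megakaryocyte markers rose (median 3.02), and their summed signal was 647% to 903% of the shControl mean in shExosc8, against 84.5% to 121% in shControl. For the 10 genes the same sum was 778% to 1187%, against 86.8% to 126%. These sums, here and below, are of signal that is not on the log scale, so the brightest gene of each list weighs most. For the 10 genes that was Pf4 (mean log2 signal 5.51 in shExosc8), and for erythroid markers Hba-a1 (7.52). All 12 megakaryocyte markers were above background on every shControl array, and 3 of them (Vwf, Selp and Gp6) are also in the granule or receptor lists. The platelet integrin gene Itga2b rose by 3.51 ± 0.17 (log2, SE).

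Markers of other cell types, some of which also express Thbs1, Plek or F5, were partly undetected. Of 11 neutrophil markers measured of 12, 11 rose (median 2.15), with a summed signal of 322% to 437% in shExosc8, against 89.6% to 112% in shControl. Of 6 macrophage and monocyte markers that qualified of 14, 5 rose (median 1.09), with a sum over the 8 measured of 251% to 302%, against 88.4% to 112%, and Vcam1 was above background on no array. Of 7 mast cell and basophil markers measured of 10, 4 rose (median 1.27), with a sum of 251% to 374%, against 82.8% to 130%, and Fcer1a and Ms4a2 were above background on no array. Of 6 hepatocyte markers that qualified of 14, 2 rose (median 1.38), with a sum over the 7 measured of 143% to 182%, against 95.1% to 109%, and Apob, Fgg and Apoh were above background on no array. Of 4 endothelial markers measured of 12, 1 rose and 1 fell (sum 106% to 120%, against 88.0% to 116%), and Cdh5, Emcn, Stab2, Flt4 and Robo4 were above background on no array. Of 3 stromal markers measured of 10, 0 rose and 1 fell (sum 55.0% to 94.9%, against 89.6% to 111%), and Col1a1, Col3a1, Pdgfra, Lum and Postn were above background on no array.

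The authors' deposited table gave the same direction for these genes. In the authors' deposited table all 15 spots of the 10 genes had a log2 fold change above 0, and 13 had an adjusted p under 0.05. The 2 others in the authors' deposited table were the F2rl2 spot (2.33, adjusted p = 0.0616) and the second Mmrn1 probe (0.65, adjusted p = 0.323). For background, the authors' deposited table calls 1679 of 59305 non-control spots higher at that threshold. Pf4 stood at 3.30 and Thbs1 at 4.14 in the authors' deposited table, and the sources used here do not give its normalization. The hairpin target Exosc8 stood at -1.06 in the authors' deposited table, with an adjusted p of 0.0730, which is not under 0.05.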

How the data were processed

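RNA of 6 samples was hybridised, Cy3-labelled, to single-colour Agilent arrays of 62976 features. The deposited intensity values were produced with Agilent Feature Extraction, version 10.7.3.1, with a spatial trend removed from each array, per the file headers. The authors' deposited table holds the same intensity values, and adds log2 fold changes and p-values for shExosc8 over shControl. The submitters' processing notes name limma, without a version. Flags (other values) were also deposited, per the file headers. Probe coordinates are on mm9, per the file headers.

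The 3671 control spots and spots flagged as non-uniform or population outliers were left out (none of the 90 spots of the 10 genes was), and spots of 1 probe were averaged as log2. Each array's 75th percentile, over the 21615 probes (38.8%) well above background on all 6 arrays, was subtracted. The filter kept 24836 probes that passed the background flag throughout 1 group or both, and the probe with the highest mean stood for its gene. Of the probes, 27495 were named through a RefSeq table (GRCm38.p6), 3549 by symbol there, and 24616 kept the file's name. Differences were tested with limma 3.58.1 in R 4.3.3 (lmFit and eBayes, two-sided, Benjamini-Hochberg). Where a whole group failed that flag, a fold is given as "at least", from the brighter group's mean against a floor set on each array by the dimmest probe that passed, or by the probe itself if brighter.

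The members and lists were chosen with earlier results of these data known. Named genes were the 10 members, Exosc8, of each other granule or activation list the 2 largest rises and the largest fall past the threshold whose groups do not overlap, and of a marker list its first gene or the one with the highest mean. The same step was run on simulated data with 18228 names and the spread that limma fitted for each name. It called 98 of 100 names given a log2 shift of 3, 54 of 100 given a shift of 1, and 7 names given none. Noise was independent between names, and far fewer names were shifted than were called in the data. These rates need not hold for the data. The number of arrays limits the precision. A planned comparison of protein sequences was not made, and 1 gene that adjoins a member is not reported here.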

Additional observations from a re-analysis of the deposited data

How the results depend on the processing

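Under the 13 alternative settings of scaling, background, filter, probe choice and blocks, and with each array left out, 9 of 10 genes stayed called higher, 0 were called lower and all 10 stayed above 0. F2rl2 passed under 5 of those 13 settings, from 1.77 (adjusted p = 0.0379) with normexp and quantile normalization to 2.99 (adjusted p = 0.0385) with an intensity trend, and its adjusted p ranged from 0.00397 with no scaling to 0.256 with the slide column as a block. The median of the 10 genes was 2.71 with no scaling between arrays, where the median of all names fell too. The number of names called was 5439 as reported, 9167 with no scaling, 1815 with no filter on dim probes, 537 with the slide column as a block, and 2347, 3043 and 8328 without shExosc8 replicate 1, 2 or 3 and 2391, 3277 and 2962 without shControl replicate 1, 2 or 3; the cause was not tested. With the replicate number as a block 5633 names and 9 of the 10 genes were called. Deviations of same-numbered arrays from their group means correlated at 0.09, 0.24 and 0.34. For shExosc8 replicates 2 and 3 the same-numbered control correlated best, while shExosc8 replicate 1 correlated best with shControl replicate 2 (0.16). With 3 arrays per group these values cannot settle whether same-numbered samples were paired, and the labels give only a number.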

Other observations

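Values follow for genes that adjoin the 10 on the chromosome. The nearest protein-coding gene on each side was taken from RefSeq by start position. Gene ends were not used, so a gene listed as a neighbour may overlap the member. The values are for neighbours that passed the filter on dim probes. Those given as at least a fold were above background on no shControl array and passed through the shExosc8 arrays, so they say nothing of how often neighbours rose. Beside Ppbp, the chemokine gene Cxcl5 was at least 9.77-fold higher (limma adjusted p = 0.00249). Beside F5, the P-selectin gene Selp rose by 3.04 ± 0.13 on the log2 scale (SE, adjusted p = 0.000343), while Slc19a2 on the other side was at -0.27 (adjusted p = 0.333). Beside Plek, Cnrip1 was at least 23.0-fold higher (adjusted p = 0.000343), and beside Clec1b, Clec9a, a lectin receptor gene of dendritic cells, at least 5.27-fold (adjusted p = 0.00838). Beside Treml1, the myeloid receptor gene Trem2 was at least 4.07-fold higher (adjusted p = 0.00776), while Nfya, which encodes a subunit of a CCAAT-binding factor, fell by 0.43 ± 0.11 (adjusted p = 0.0340). Iqgap2, whose start comes before that of F2rl2, rose by 1.62 ± 0.26 (adjusted p = 0.00786). Those that did not pass were Slc19a2, Fsip1 (-0.05), Ccser1 (-0.36) and Sv2c (-0.13). The set was chosen by position after the members' values were known.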
